A study of Homo sapiens with 4 samples.

Results

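The genes described here are 10 markers of glandular and mucosal secretory epithelium: the disulfide isomerase family genes AGR2 and AGR3, the transmembrane mucins MUC1 and MUC16, the cell surface adhesion genes CEACAM5 and CEACAM6, the tetraspanin TSPAN8, the trefoil peptide TFF3, the lipocalin LCN2 and the prostate stem cell antigen PSCA. They were chosen by symbol, with the question whether other glandular genes follow AGR2, whose level was already known to be high only in the libraries labelled as knockdown. In the deposited table of 17064 rows, 9 of the 10 had a row, and TFF3 was not analysed here. Of these 9, 4 (AGR2, MUC1, LCN2 and PSCA) averaged 5 FPKM or more. FPKM scales the fragments of a gene by its length and by the size of the library, so levels of different genes can be compared within a library. Because the choice rested on the difference between knockdown-labelled and control libraries, the values of that contrast are given as a description.

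By the sample titles, the cells came from KYSE-150, a line established from a squamous cell carcinoma of the esophagus. Controls had normal NSUN6, and the knockdown cells carried a stable short hairpin RNA against NSUN6, an RNA 5-methylcytosine methyltransferase. All cells received cycloheximide, which halts ribosomes on their mRNAs, and each lysate gave an input RNA library and a library of RNA collected through a sucrose cushion, called polyribosome RNA. There was 1 library in each of the 4 groups, so differences are given without replicate error or p-values. At its end the table repeats its column names, and there the control columns are K150 with a hairpin against GFP, while the other pair is K30 with a hairpin against Mettl1 and has its input and polyribosome columns exchanged. The first line was followed, and that pair is called knockdown-labelled. K150 appears to stand for KYSE-150, so K30 may name another cell line. Cell line and hairpin then cannot be told apart in differences between the pairs. NSUN6 was at 8.85 FPKM in control input and 3.83 in knockdown-labelled input, and at 10.13 and 0.38 FPKM in the polyribosome libraries. Of the rows averaging 5 FPKM or more, 14.4% were at least 2-fold lower in input and 32.9% in polyribosome RNA. The NSUN6 values therefore do not settle which names are right. Some single keratins also differed strongly between the 2 cell populations, though they do not stand for all markers of their epithelia. KRT5 and KRT17, of basal squamous cells, had 906 and 274 FPKM in control input against 0.45 and 7.39 in knockdown-labelled input. KRT13, of suprabasal squamous cells, had 1.56 against 303 FPKM, and KRT19, of simple epithelia, 0.07 against 1488. In input RNA, 8 of 25 simple and glandular epithelial markers were at least 2-fold higher in knockdown-labelled cells, 1 was lower and 16 were within 2-fold. Of 36 squamous markers, 10 were higher and 9 lower. Of all rows, 9.46% were higher and 9.85% lower in input, and of the rows averaging 5 FPKM or more, 13.2% and 14.4%. The depth of sequencing is unknown.

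Secretory cells of glands and mucosae make mucins, large glycoproteins that either form mucus or stay anchored in the cell surface, together with trefoil peptides and antimicrobial proteins. AGR2 resides in the endoplasmic reticulum and takes part in the folding of mucins, and AGR3 is its closest relative. CEACAM5 encodes the carcinoembryonic antigen. LCN2 binds bacterial siderophores and so withholds iron, and PSCA is a small glycolipid-anchored protein of the Ly6 family found on several mucosal surfaces, including that of the stomach and esophagus.

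The upstream sequences of AGR2, AGR3, CEACAM5 and CEACAM6 are shown because these 4 genes form 2 pairs of adjacent relatives that were each higher in knockdown-labelled input RNA. Each is the 250 bases before the transcript start in RefSeq on GRCh38.p14, which is not the build of the deposited table, written 5′ to 3′ on the strand of the gene. They lie at chr7:16805000-16805249 on the minus strand for AGR2, chr7:16881984-16882233 on the minus strand for AGR3, chr19:41708376-41708625 on the plus strand for CEACAM5 and chr19:41755280-41755529 on the plus strand for CEACAM6. Capitals mark every match, on either strand, to the 6 short motifs searched: the TATA box TATAAA, its variant CATAAA, the E-box CACGTG, the GC box GGGCGG, and the forkhead cores TGTTTAC and TGTTTGC.
AGR2: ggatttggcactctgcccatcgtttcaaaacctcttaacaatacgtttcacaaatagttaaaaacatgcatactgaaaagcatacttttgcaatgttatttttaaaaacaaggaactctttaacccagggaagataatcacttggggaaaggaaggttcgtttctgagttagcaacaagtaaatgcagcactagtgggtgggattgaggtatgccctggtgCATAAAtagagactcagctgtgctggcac
AGR3: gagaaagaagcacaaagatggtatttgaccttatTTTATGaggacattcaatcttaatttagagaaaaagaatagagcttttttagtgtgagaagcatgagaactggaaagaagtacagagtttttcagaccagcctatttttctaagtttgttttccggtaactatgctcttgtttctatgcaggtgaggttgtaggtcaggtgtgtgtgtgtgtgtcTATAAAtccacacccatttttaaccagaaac
CEACAM5: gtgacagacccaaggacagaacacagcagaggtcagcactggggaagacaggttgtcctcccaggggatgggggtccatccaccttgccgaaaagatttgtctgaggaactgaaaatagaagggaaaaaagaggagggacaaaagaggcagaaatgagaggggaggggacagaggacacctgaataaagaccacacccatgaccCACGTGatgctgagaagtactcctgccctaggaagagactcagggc
CEACAM6: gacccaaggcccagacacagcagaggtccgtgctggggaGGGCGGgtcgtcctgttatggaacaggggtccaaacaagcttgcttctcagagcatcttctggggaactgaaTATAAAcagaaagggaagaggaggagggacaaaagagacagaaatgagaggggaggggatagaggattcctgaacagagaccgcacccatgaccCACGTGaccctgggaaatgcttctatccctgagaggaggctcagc
The AGR2 window held CATAAA, from 29 to 24 bases before the start, and the AGR3 window held TATAAA from 31 to 26 bases before it, with a reverse-strand CATAAA further out. CEACAM5 and CEACAM6 both held the E-box, from 46 and 45 bases before the start, and CEACAM6 also held TATAAA and GGGCGG. No marked matches overlapped. Windows of other markers, not shown, held such boxes too. MUC1 held TATAAA from 30 to 25 or 24 to 19 bases before the start, depending on the start used. LCN2 held CATAAA from 30 to 25 bases before it, and TSPAN8 from 17 to 12 or 207 to 202, while MUC16 held neither motif. MUC1, LCN2 and TSPAN8 were not higher in knockdown-labelled input by 2-fold, so the boxes are not particular to the higher genes. Among all 34943 RefSeq windows of this length, 10.8% held TATAAA, 9.66% CATAAA, 6.32% CACGTG, 42.5% GGGCGG, 2.98% TGTTTAC and 3.24% TGTTTGC. In a global alignment, the CEACAM5 and CEACAM6 windows were identical at 74.6% of aligned columns and the AGR2 and AGR3 windows at 50.9%. The unrelated pair of AGR2 and CEACAM6, aligned the same way, gave 48.0%.

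AGR2 stood far from the other markers. In control cells it was at 0.25 FPKM in input and 0.15 in polyribosome RNA, and in knockdown-labelled cells at 1093 and 316. Both control libraries were near 0 and both knockdown-labelled libraries were high. Among the rows of the table AGR2 ranked 71 in knockdown-labelled input and 329 in knockdown-labelled polyribosome RNA, against 11995 and 12229 in the control libraries. On the scale of log2(FPKM + 1), used for all differences here, AGR2 differed by 9.77 in input and by 8.11 in polyribosome RNA. In bulk RNA, more cells with a transcript and more transcript per cell cannot be told apart.

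**Figure D1:**
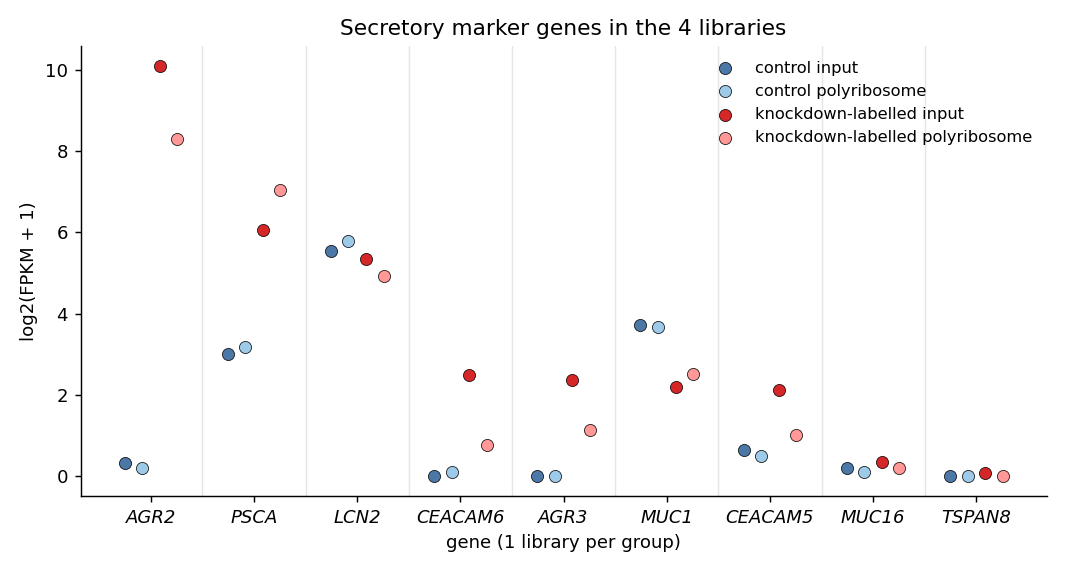
Levels of the 9 markers with a row in the table, as log2(FPKM + 1), in control input, control polyribosome, knockdown-labelled input and knockdown-labelled polyribosome RNA. Each point is 1 library, and genes are ordered by their level in knockdown-labelled input. AGR2 and PSCA are higher in both knockdown-labelled libraries, MUC1 is lower in both, and MUC16 and TSPAN8 lie near 0 in all 4.

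AGR3, which lies next to AGR2 on chromosome 7, followed it in direction at a low level. It was listed at 0 in both control libraries, at 4.15 FPKM in knockdown-labelled input and at 1.18 in knockdown-labelled polyribosome RNA. The differences were 2.36 and 1.12, and in knockdown-labelled input AGR2 was at 1093 FPKM where AGR3 was at 4.15. On the other side of AGR2 lies TSPAN13, a tetraspanin, at 11.8 FPKM in control input and 77.3 in knockdown-labelled input, a difference of 2.62. Beyond AGR3 lies AHR, the aryl hydrocarbon receptor, at 7.67 and 14.6 FPKM, a difference of 0.85, and beyond TSPAN13 lies BZW2, at 0.94. In polyribosome RNA the differences of TSPAN13, BZW2 and AHR were 0.98, -0.79 and -0.68. In input RNA the 3 adjacent genes TSPAN13, AGR2 and AGR3 were thus at least 2-fold higher, and the 6 neighbours outside them lay between -0.46 for ANKMY2 and 0.94 for BZW2.

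**Figure D2:**
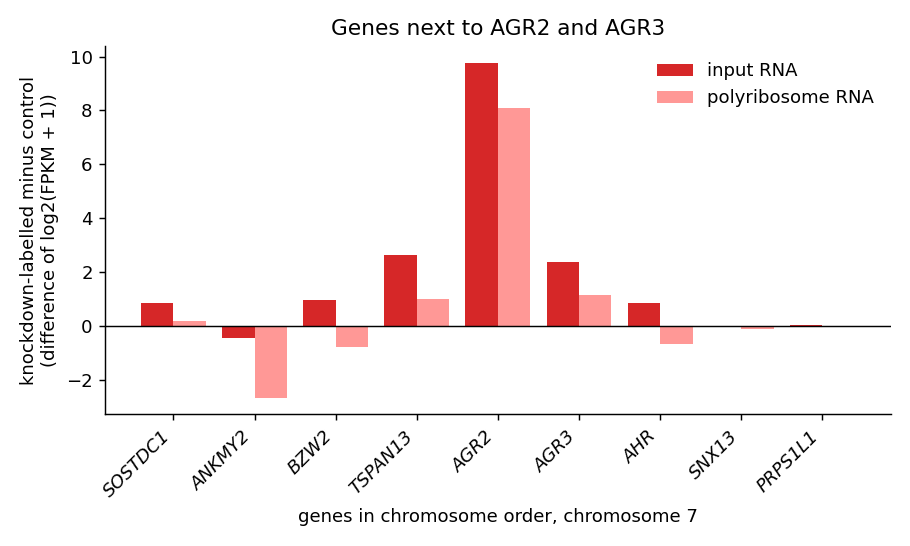
Difference of log2(FPKM + 1), knockdown-labelled minus control, for AGR2 and the 4 genes with a row on either side of it, in RefSeq chromosome order and not to distance. Bars give input and polyribosome RNA, with 1 library per group. AGR2 stands at 9.77 and 8.11, between TSPAN13 at 2.62 and 0.98 and AGR3 at 2.36 and 1.12.

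PSCA was the second marker that was high in both knockdown-labelled libraries, and unlike AGR2 it was also present in control cells. Control cells had 7.03 FPKM in input and 7.98 in polyribosome RNA, and knockdown-labelled cells had 65.4 and 132. The level was thus 9.31-fold higher in input and 16.6-fold higher in polyribosome RNA by the ratio of FPKM, with log2 differences of 3.05 and 3.89. The PSCA transcript shares 60 of its 971 stretches of 50 bases with the neighbouring gene JRK, so a part of its reads could be assigned to either. JRK was at 1.63 FPKM in control input and 3.56 in knockdown-labelled input, levels far under those of PSCA in the same libraries.

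CEACAM5 and CEACAM6 were low in every library. CEACAM5 had 0.55 FPKM in input and 0.40 in polyribosome RNA of control cells, and 3.35 and 1.02 in those of knockdown-labelled cells. CEACAM6 was listed at 0 in control input and had 0.06 FPKM in control polyribosome RNA, against 4.59 and 0.68 in the knockdown-labelled libraries. In input the differences were 1.49 and 2.48, and in polyribosome RNA they were 0.53 and 0.66, under the 2-fold limit. The assignment of part of their reads is uncertain. In GENCODE 29, 20.4% of the 50-base stretches of the longest CEACAM5 transcript and 7.92% of those of CEACAM6 also occur in transcripts of other genes, for the most part of the locus AC243967.1 and of each other.

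MUC1, the best known transmembrane mucin, went the other way. Its input and polyribosome levels were 12.2 and 11.8 FPKM in control cells and 3.53 and 4.72 in knockdown-labelled cells. Both knockdown-labelled libraries were below both control libraries, with differences of -1.55 and -1.16. Centred on the median of all genes in polyribosome RNA, which was -0.28, the second difference was -0.88. MUC16, the mucin that carries the CA125 antigen, was at 0.07 to 0.27 FPKM in the 4 libraries. TSPAN8 was at 0.04 FPKM in knockdown-labelled input and listed at 0 in the other 3 libraries, so neither gene could be placed in an order.

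LCN2 was high in all 4 libraries. Input and polyribosome RNA had 45.4 and 54.7 FPKM in control cells, and 39.6 and 29.2 in knockdown-labelled cells. The 2 knockdown-labelled values lay below the 2 control values, with differences of -0.19 in input and -0.88 in polyribosome RNA, both under 2-fold.

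Counted together, 5 of the 9 markers were at least 2-fold higher in knockdown-labelled than in control input RNA (AGR2, AGR3, CEACAM5, CEACAM6 and PSCA), 1 was at least 2-fold lower (MUC1) and 3 were within these limits. Of all rows, 9.46% passed these limits upwards and 9.85% downwards, and of the rows averaging 5 FPKM or more, 13.2% and 14.4%. In polyribosome RNA 3 of the 9 were higher (AGR2, AGR3 and PSCA) and 1 lower (MUC1), where 10.4% of all rows were higher and 22.4% lower, and 16.7% and 32.9% of the rows past the filter. The median difference of the 9 was 1.49 in input and 0.53 in polyribosome RNA, against 0.00 and -0.04 over all rows. AGR2, AGR3 and PSCA were at least 2-fold higher in both fractions, which 5.05% of all rows were, and MUC1 lower in both, which 6.21% were. The genes were chosen with the high AGR2 level in view, so these counts describe the list and support nothing beyond it. Markers of fibroblasts, endothelium and immune cells summed to 75.2 and 73.7 FPKM in the control and 10.3 and 8.98 in the knockdown-labelled libraries, of which CD68 made 71.2, 69.3, 5.90 and 6.38. COL1A1 was the other of the 26 such genes to reach 1 FPKM, and the part of these genes in the counts was not tested. With 5 FPKM added in place of 1, the markers at least 2-fold higher in input were 2, AGR2 and PSCA. With the knockdown-labelled fractions exchanged, as in the repeated column names, they were 3, and CEACAM5 and CEACAM6 were then at 0.38 and 0.75.

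**Figure D3:**
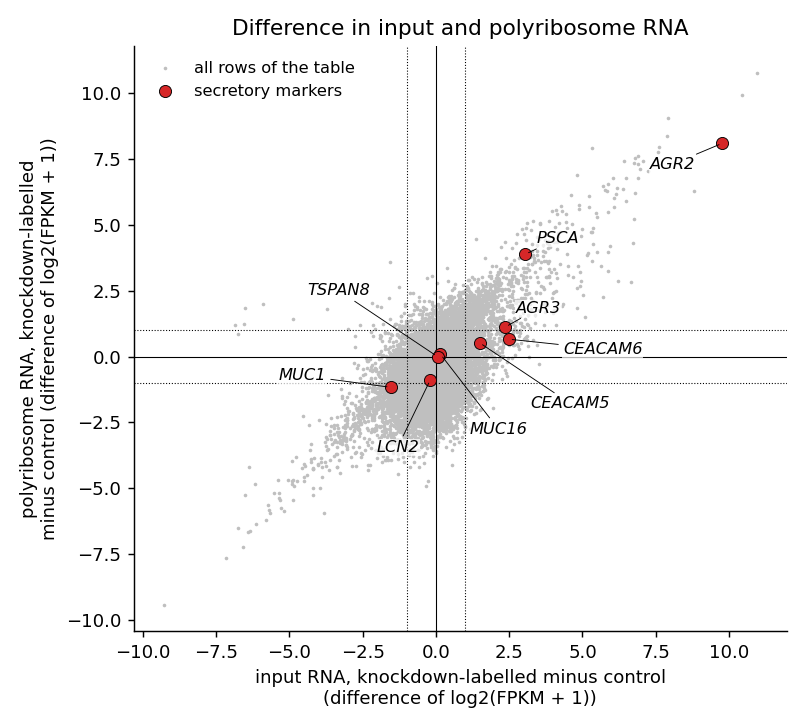
Difference of log2(FPKM + 1), knockdown-labelled minus control, in input RNA (x axis) and polyribosome RNA (y axis) for all 17064 rows of the table in grey and the 9 markers in red. Dotted lines mark 2-fold in either direction. AGR2 (9.77, 8.11) and PSCA (3.05, 3.89) lie to the upper right, MUC1 (-1.55, -1.16) to the lower left, and MUC16 and TSPAN8 at the centre.

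The 5 genes nearest to each of the 4 markers that reached 5 FPKM were sought by Euclidean distance over the 4 values of log2(FPKM + 1). Those nearest to AGR2 were the cornified envelope gene SPRR3, at a distance of 1.62, the interferon-induced genes IFI27 (1.91) and BST2 (2.11), the glutathione transferase MGST1 (2.12) and the cancer/testis gene CTAG2 (2.13). None of the 5 is among the markers. For PSCA they were the creatine synthesis enzyme GAMT (0.44), the simple epithelial keratin KRT7 (0.75), the cystatin CST6 (0.80), the chloride channel family gene CLIC3 (0.93) and the transcription factor ATF5 (1.03). LCN2 had close neighbours, DDX19B at 0.14 and APOBEC3B at 0.15 the first among them, as did MUC1, with PLEKHF1 at 0.24 and PEX6 at 0.25.

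On control polyribosomes no marker was 2-fold apart from input, and the differences of polyribosome minus input ran from -0.15 for CEACAM5 to 0.26 for LCN2. AGR2, AGR3, MUC16, CEACAM5, CEACAM6 and TSPAN8 were each under 1 FPKM in both control libraries, where this scale cannot give a 2-fold difference. Only MUC1, LCN2 and PSCA could have been called. Over all rows 0.815% were at least 2-fold apart in control cells. In the knockdown-labelled cells 4 of the 9 were at least 2-fold lower on polyribosomes than in input, namely AGR2 (-1.79), CEACAM6 (-1.73), AGR3 (-1.24) and CEACAM5 (-1.11), and PSCA was higher by 1.00. Of all rows 21.7% were lower and 4.15% higher by that much. In the authors' deposited table the ratio of polyribosome to input FPKM of AGR2, with 5 added to each, went from 0.981 in control to 0.292 in knockdown-labelled cells, and that of PSCA from 1.08 to 1.95. The change in this difference between the cells, called here the change in efficiency and taken with 1 FPKM added, was -1.67 for AGR2, -1.82 for CEACAM6, -1.24 for AGR3, -0.96 for CEACAM5, -0.69 for LCN2, 0.39 for MUC1 and 0.84 for PSCA. Thus 3 of the 9 were at least 2-fold lower in efficiency and 0 higher, where 19.6% and 6.18% of all rows were. AGR2, AGR3, CEACAM5 and CEACAM6 were under 1 FPKM in both control libraries, so their change mostly repeats the knockdown-labelled difference. With 5 FPKM added, as in the authors' ratio, 1 was lower, AGR2 at -1.75, and CEACAM6, AGR3 and CEACAM5 were at -0.77, -0.57 and -0.43. All of these signs depend on the column order, and with the knockdown-labelled fractions exchanged the change was 1.91 for AGR2 and -1.17 for PSCA.

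The base composition of the transcripts moved with the fraction difference in the knockdown-labelled cells. GC content was taken from the longest protein-coding transcript of each gene in GENCODE 29, for 7158 of the 7379 genes past the filter (97.0%). Across these genes, which are not independent replicates, Spearman's rho between GC content and polyribosome minus input was 0.82 in knockdown-labelled and 0.02 in control cells. AGR2 has a GC content of 41.5% and lay in the lowest of 5 bins of equal gene number, where the median difference in knockdown-labelled cells was -1.96 and 81.8% of genes were at least 2-fold lower on polyribosomes. PSCA has 62.8% and lay in the highest bin, with a median of 0.74 and 25.7% of genes at least 2-fold higher. Minus the median of its bin, AGR2 was at 0.18 and PSCA at 0.26, so both stood within 2-fold of genes of like composition. AGR3 (36.4%) and CEACAM6 (46.3%) lay in the 2 lowest bins, and MUC1 (71.2%) in the highest. CEACAM5 (49.5%), at -1.11, lay in the middle bin, where the median was -0.09 and 12.2% of genes were at least 2-fold lower. With the bin median taken off, the AGR2 difference between the cells was 9.64 in input, from 9.77, and 9.84 in polyribosome RNA, from 8.11. That of PSCA was 3.18, from 3.05, and 3.22, from 3.89. That of MUC1 was -1.42, from -1.55, and -1.84, from -1.16, and that of LCN2 was -0.19 and -0.69. Over the same genes, rho between GC content and the difference between the cells was 0.61 in polyribosome RNA and -0.10 in input RNA. The values of the gene lists that follow were not adjusted for GC content.

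**Figure D4:**
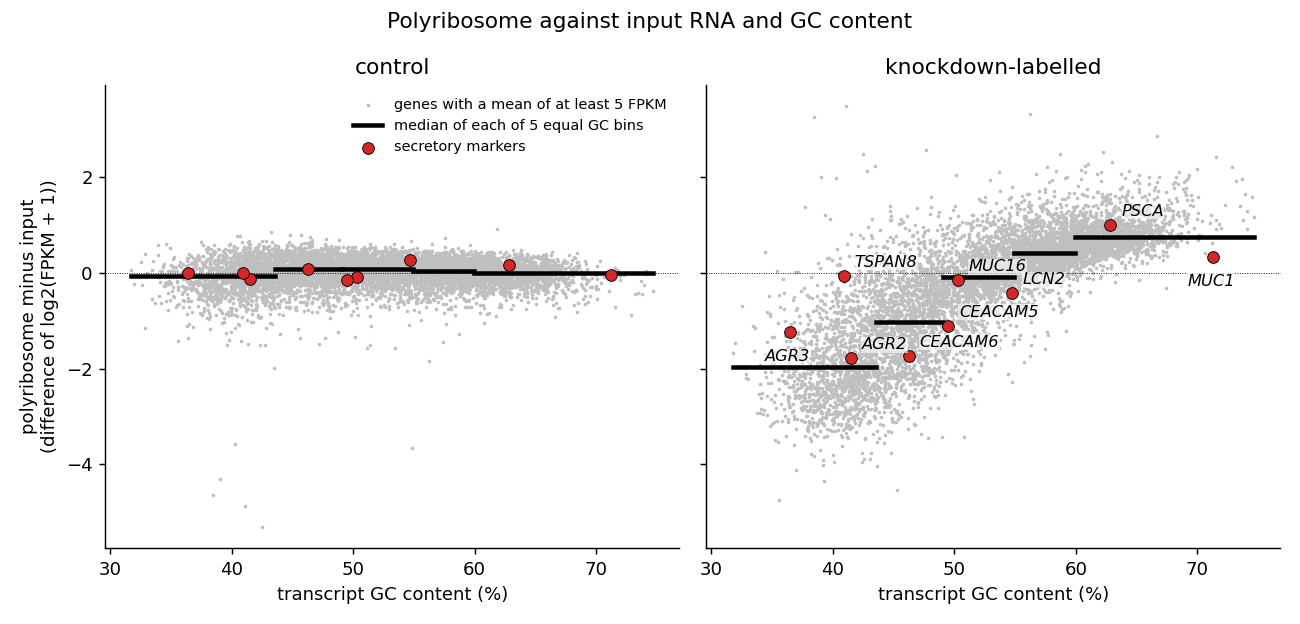
Polyribosome minus input difference of log2(FPKM + 1) against transcript GC content, in control (left) and knockdown-labelled cells (right). Grey points are the 7158 genes, black lines the medians of the 5 equal GC bins and red points the 9 markers. In knockdown-labelled cells the bin medians run from -1.96 to 0.74, with AGR2 at -1.79 and PSCA at 1.00, and in control cells they lie between -0.06 and 0.08.

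Relatives of the markers were examined by family, with counts over the members that had a row in the table. Of all rows, 9.46% were at least 2-fold higher and 9.85% lower in input, and 10.4% and 22.4% in polyribosome RNA. These shares apply beside each list count that follows. Of 12 other mucins, 10 stayed under 1 FPKM in every library. MUC2, MUC5AC and MUC5B, the gel-forming mucins of goblet and surface mucous cells, did not exceed 0.03 FPKM. The 2 mucins above 1 FPKM were MUC20, at 0.21 and 0.28 FPKM in the control and 18.9 and 24.9 in the knockdown-labelled libraries, and MUC3A, at 0.01 in both control and at 1.31 and 4.33 in the knockdown-labelled libraries. Both were at least 2-fold higher in both fractions. No mucin of the list exceeded 0.28 FPKM in a control library, so none could be called lower. MUC20 and MUC3A have close relatives or copies in the genome, so the assignment of their reads is uncertain.

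Among 10 other CEACAM and PSG family genes, 3 were up by 2-fold or more in input and 0 down. Only CEACAM19 exceeded 1 FPKM in control cells, so only it could have been called down. CEACAM1 was at 0.20 FPKM in control input and 6.67 in knockdown-labelled input, CEACAM19 at 3.01 and 7.51, and the pregnancy-specific glycoprotein PSG5 at 0.09 and 1.96. In polyribosome RNA CEACAM19 differed by 2.18, CEACAM1 by 1.48 and PSG5 by 0.42. CEACAM1 shares sequence with CEACAM5 and CEACAM6, so its reads are subject to the same uncertainty. CEACAM3 and CEACAM7, which flank CEACAM6 and CEACAM5, did not exceed 0.04 FPKM.

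Of 10 other trefoil and mucus layer genes, 0 were 2-fold apart in either fraction. Of these, 9 stayed under 1 FPKM in every library, where no call was possible. TFF1, the trefoil peptide of the stomach, the goblet cell gene CLCA1 and BPIFB1 were listed at 0 in all 4 libraries, and the gastric genes GKN1 and GKN2 did not exceed 0.06 FPKM. CLCA2, a gene of squamous epithelium, was the only one to reach 1 FPKM, at 0.57 in control input and 1.89 in knockdown-labelled input. The goblet and gastric mucous cell genes named here were thus at or near 0 in both cell populations, and AGR2 was high without these. TFF3, 5 of the 15 trefoil and mucus layer genes sought and 5 of the 17 other mucins had no row, which is not a value of 0. Of 24 glandular and gut transcription factors, 7 were at least 2-fold higher in knockdown-labelled input and 1 lower, as given below.

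Secreted defence proteins and proteases of mucosae had 4 of 19 genes at least 2-fold higher in input and 1 lower, and 5 higher and 1 lower in polyribosome RNA. S100P, a calcium-binding protein, was at 0.41 FPKM in control input and 41.0 in knockdown-labelled input, with differences of 4.90 and 5.76 in the 2 fractions. PRSS8, the membrane-anchored protease prostasin, differed by 3.84 and 4.14. SLPI, the secretory leukocyte protease inhibitor, was lower, at 154 FPKM in control input and 49.8 in knockdown-labelled input. For LCN2, the receptor gene SLC22A17 was listed at 0 in control cells and was at 2.32 and 2.49 FPKM in the knockdown-labelled libraries. It was 1 of 2 among 11 other lipocalin family and LCN2 partner genes that were at least 2-fold higher in input, with 0 lower. The other was APOD, at 0.26 and 4.65 FPKM in the 2 inputs. Together the 11 genes summed to 0.77 FPKM in control input, so none could be called lower there.

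TSPAN8 was near 0, as were 8 of 29 other tetraspanin and related genes, which stayed under 1 FPKM in every library. Of the 29, 7 were at least 2-fold higher in input and 4 lower, and in polyribosome RNA 8 were higher and 2 lower. TSPAN15, a regulator of the protease ADAM10, was at 0.46 and 0.34 FPKM in the control and 74.6 and 120 in the knockdown-labelled libraries, differing by 5.69 and 6.50. TSPAN1 was higher by 2.31 in polyribosome RNA and TSPAN2 by 2.75 in input. TSPAN4 was lower by -2.07 in input and -1.30 in polyribosome RNA, TSPAN9 by -1.33 in input, and TM4SF1 by -1.78 in polyribosome RNA.

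Relatives of PSCA in the Ly6/uPAR family went both ways. Of 16, 4 were at least 2-fold higher and 3 lower in input, and 6 were higher and 1 lower in polyribosome RNA. LYPD3, a surface protein of squamous epithelium, had 20.3 and 104 FPKM in the 2 inputs, and differed by 2.30 and 3.02. LY6D, a marker of stratified epithelium, differed by 2.22 and 4.17. LYPD5 was lower by -1.37 and -1.45, and LYPD6B differed by -1.39 and -0.97.

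AGR2 works among other disulfide isomerases and oxidases of the endoplasmic reticulum. Of 19 such genes, 2-fold or more separated 4 upwards and 2 downwards in input, and 1 upwards and 6 downwards in polyribosome RNA. Their median difference was 0.50 in input and -0.66 in polyribosome RNA. Of the 19, 14 averaged 5 FPKM or more, and among all such rows 32.9% were lower in polyribosome RNA. P4HB, the archetypal protein disulfide isomerase, was at 196 FPKM in control input and 444 in knockdown-labelled input, and differed by 1.18 and 1.01. TMX1, a membrane-bound isomerase, was higher by 1.68 in input and differed by -0.88 in polyribosome RNA. ERP44, which retains oxidases in the secretory pathway, differed by 0.68 in input and -2.60 in polyribosome RNA. For ERO1A, an oxidase of isomerases, these values were 0.44 and -1.75. ERO1B and ERP27 were lower in input, by -1.30 and -1.11.

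Stress sensors and factors of secretory cells gave 3 of 16 higher and 1 lower in input, and 2 higher and 3 lower in polyribosome RNA. HSPA5, the main chaperone of the endoplasmic reticulum, was at 51.1 FPKM in control input and 151 in knockdown-labelled input. It differed by 1.54 in input and -0.76 in polyribosome RNA. SSR4, of the translocon-associated complex, differed by 1.12 and 1.61. CREB3L2 differed by -1.46 and -2.39, HSP90B1 by 0.69 and -2.58, CREB3L4 by 0.15 and 1.24, and HYOU1 by -0.28 and -0.81. Their median difference was 0.08 in input and -0.57 in polyribosome RNA. For the mucins, CEACAM and PSG genes, trefoil and mucus genes, defence proteins, tetraspanins, Ly6/uPAR genes and LCN2 partners, the medians lay between 0.00 and 0.21 in input, and between 0.00 and 0.11 in polyribosome RNA. The medians of all rows were 0.00 and -0.04.

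**Figure D5:**
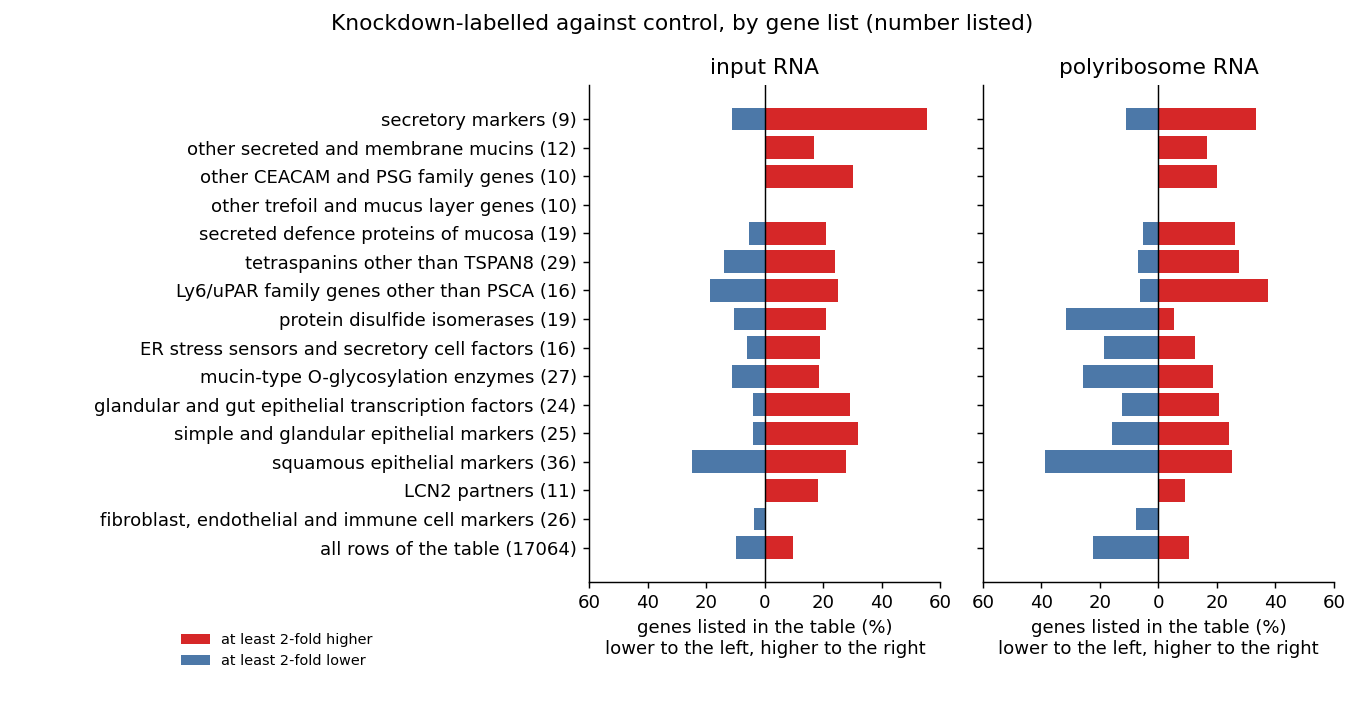
Share of the genes with a row in the table that were at least 2-fold higher (right, red) or lower (left, blue) in knockdown-labelled than in control input RNA and polyribosome RNA, for the markers, 14 related lists and all 17064 rows. Numbers in parentheses are the genes with a row. The list of other trefoil and mucus layer genes has no bar in either fraction, and over all rows 9.46% were higher in input and 10.4% in polyribosome RNA.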

How the data were processed

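By the sample titles, input and polyribosome RNA were measured in control and NSUN6 knockdown KYSE-150 cells, with 1 library in each of 4 groups. The repeated column names give another identity for the second pair, as described above. Sample titles gave the groups, and the header's column names, which match the descriptions, gave the columns. The authors deposited FPKM per gene symbol, rounded to 2 decimals, and a ratio of polyribosome to input FPKM. Their values show that 5 FPKM was added to both (largest gap 5e-10). The submitters' processing notes name TopHat, hg19 and GRCh37. The tool that computed FPKM, its strand setting and its annotation were not given in the sources used here. Depth is unknown, so no interval or floor was computed.

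Differences were taken on log2(FPKM + 1) with pandas 2.3.3, which understates the change of low genes. Promoter windows were aligned with Biopython 1.88. The 28 rows whose name holds no letters were kept in the shares of all rows. A gene was called when at least 2-fold apart. The functions were tested on simulated data. The members and the 14 gene lists were chosen with earlier results of these data known. All members could be named. From each list, names were taken from the 2 highest and 2 lowest genes in input and in polyribosome RNA among those that reached 1 FPKM, and listed mucin, CEACAM and trefoil genes. NSUN6, the genes nearest in pattern and the chromosome neighbours of AGR2 were named too. JRK was named for its shared sequence, after its values were seen. Symbols of 16916 of 17036 named rows matched RefSeq, used for gene order only. Alternatives were 0.1 or 5 FPKM added, centring on the median, other filters, exchanged fractions and, chosen after seeing the data, removal of the median of genes of like GC content.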

Additional observations from a re-analysis of the deposited data

Results flagged for a closer look

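In 2 markers that reached 1 FPKM in both cell populations, polyribosome minus input had opposite signs in control and knockdown-labelled cells. On the log2 scale LCN2 had a value of 0.26 in control cells and -0.42 in knockdown-labelled cells. The corresponding values of MUC1 were -0.049 and 0.34. With 1 library per group the difference between the cells was not tested. All 4 values are under 2-fold, and with the knockdown-labelled fractions exchanged each gene had the same sign in both cell populations.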

How the results depend on the processing

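No paired analysis was possible because each group has 1 library. With 5 FPKM added, the markers at least 2-fold apart in input were 3 (2 higher), in polyribosome RNA 2 (0 lower), between the knockdown-labelled fractions 1 (0 higher, 1 lower) and in efficiency change 1 (lower). With 0.1 FPKM added, 5 were higher in polyribosome RNA, and with centring 0 were lower there. With the knockdown-labelled fractions exchanged, 3 were higher in input and 5 in polyribosome RNA, and 4 were higher and 1 lower between the fractions. The change in efficiency was then called for 5 (4 higher, 1 lower). That exchange reversed 10 values by its own construction. Polyribosome minus input became 1.79 for AGR2, 1.24 for AGR3, 1.11 for CEACAM5, 1.73 for CEACAM6 and -1.0 for PSCA, and the efficiency change 1.91, 1.24, 1.25, 1.65 and -1.17. Minus the median of genes of like GC content, AGR2 was at 0.18 for the knockdown-labelled fractions and 0.22 for the efficiency change, and PSCA at 0.26 for the first. AGR2 and PSCA were at least 2-fold higher in input and polyribosome RNA under each of these settings. Of all rows, 42.1% were called in efficiency change past the filter at 5 FPKM and 25.8% with no filter, and 49.5% and 32.7% in polyribosome RNA.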

Other observations

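Simple and glandular epithelial markers outside the 10 genes had 8 of 25 at least 2-fold higher and 1 lower in input RNA of knockdown-labelled cells, and 6 higher and 4 lower in polyribosome RNA. KRT19 had the largest difference of the list in both fractions, 10.44 in input and 9.93 in polyribosome RNA, where it stood at 1.02 FPKM in control and 1973 in knockdown-labelled cells. CLDN1, a tight junction gene, had 0.07 and 77.9 FPKM in the 2 inputs. KRT7 differed by 4.81 in polyribosome RNA. CA2, a carbonic anhydrase, was lower by -3.37 and -4.21, and EPCAM differed by 1.47 in input and -1.42 in polyribosome RNA. Squamous markers had 10 of 36 higher and 9 lower in input, and 9 higher and 14 lower in polyribosome RNA. SPRR3 and KRT13, of the suprabasal layers, differed by 8.69 and 6.89 in input and KRT5 and KRT17, of the basal layer, were lower by -9.29 and -5.03. In polyribosome RNA KRT5 differed by -9.42 and KRT17 by -4.70.

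Transcription factors of glandular and gut epithelium had 7 of 24 at least 2-fold higher and 1 lower in input, and 5 higher and 3 lower in polyribosome RNA. GATA4 was listed at 0 in control cells and had 5.61 FPKM in knockdown-labelled input and 6.05 in the polyribosome library. CDX2, the intestinal homeobox gene, was likewise listed at 0 in control and was at 2.21 and 4.45. ELF3, an epithelial ETS factor, was at 46.0 and 177 FPKM in the 2 inputs, whereas SOX9 differed by -1.23 in input and -2.63 in polyribosome RNA. Enzymes of mucin-type O-glycosylation had 5 of 27 higher and 3 lower in input, and 5 higher and 7 lower in polyribosome RNA. The sialyltransferase ST6GALNAC4 differed by 2.35 and 4.37, the fucosyltransferase FUT4 by 2.00 in input, GALNT14 by -1.55 in input and GALNT3 by -2.09 in polyribosome RNA. Fibroblast, endothelial and immune markers had 0 of 26 higher in either fraction, 1 lower in input and 2 lower in polyribosome RNA. Of the 26, 24 stayed under 1 FPKM in every library, where no call was possible.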
